A study of Mus musculus with 4 samples.

Results

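The transcription factor Nfe2 and genes of the machinery by which megakaryocytes shape platelets were examined in a megakaryoblastic leukemia of mice. The set was named by gene symbol and held 10 genes of the 18193 genes on the array: Nfe2, Tubb1, Myh9, Myl9, Mylk, Flna, Tpm4, Rab27b, Slc35d3 and Plek. They were read by 21 probe sets that the platform annotation pairs with no other gene, and each gene was represented by its probe set of highest mean log2 value over these 4 arrays. The rule uses gene symbols and no measured difference between samples, but the set was chosen with earlier results of these data known.

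The leukemia, M7 with the designation T6(6), came from retroviral insertional mutagenesis of fetal progenitors with the short mutant form of Gata1 (Gata1s). Blasts that carried the GFP reporter of the retrovirus were sorted, without culture or treatment, from the spleen (2 arrays) and from the peripheral blood (2 arrays) of the same 2 mice. All 4 samples therefore share the mutant Gata1 and the same leukemia designation; strain and age are not given in the labels, and normal megakaryocytes are not analysed here. Replicate spread is spread between 2 animals, and precision is limited by having 2 arrays per tissue.

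Megakaryocytes release platelets by extending long cytoplasmic processes, the proplatelets. Sliding microtubules drive their extension, actin and nonmuscle myosin shape and branch them, and granules are carried along them into the forming platelets. NF-E2, a dimer of the Nfe2 protein (p45) with a small Maf protein, controls late genes of this programme, and mice without Nfe2 make almost no platelets.

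Every array had a median intensity between 103.7 and 110.6. Of 12 megakaryocyte markers 10 were used here, and 9 of them passed a filter of 106.4, the median intensity over all probe sets, on every array. The integrin chain Itgb3 was the exception. The filter is low, and 11614 of 18193 genes reached it on average. On every array 6 of 9 T, NK and B cell markers also passed it, as did 5 of 8 erythroid and 4 of 10 granulocyte markers. Passing it therefore does not by itself identify the lineage. The summed intensity of 10 granulocyte markers was 4044 and 1032 in spleen of mouse 1 and mouse 2, against 6680 and 17040 in blood of mouse 1 and mouse 2. Blood of mouse 2 was highest and spleen of mouse 2 lowest, none of the 10 was at or below 0 on all arrays, and each of the 7 tested markers was lower in spleen in both mice.

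Promoter windows of the members were searched because NF-E2, ETS and RUNX factors and the actin-responsive factor SRF are known regulators in megakaryocytes. The windows of 3 members that held a match are shown. Those of Slc35d3, Flna, Tpm4 and Plek held no match and, like that of Myh9, are not shown. The windows run from 250 bases before to 50 after the RefSeq start in mouse assembly GRCm38.p6, and 8 of the 10 members matched an entry. Motifs were searched on both strands. The core site shared by NF-E2 and AP-1 was TGAGTCA, and the longer NF-E2 site was this core followed at once by GC. AGATAA was taken for GATA factors. RUNX factors were represented by TGTGGT and ETS factors by AGGAAG. SRF was represented by its CArG box. Capitals mark every match. Tubb1, the megakaryocyte beta tubulin and a known NF-E2 target, is at chr2:174450345-174450644 on the plus strand, Mylk at chr16:34784700-34784999 on the plus strand and Myl9 at chr2:156775214-156775513 on the plus strand.
Tubb1: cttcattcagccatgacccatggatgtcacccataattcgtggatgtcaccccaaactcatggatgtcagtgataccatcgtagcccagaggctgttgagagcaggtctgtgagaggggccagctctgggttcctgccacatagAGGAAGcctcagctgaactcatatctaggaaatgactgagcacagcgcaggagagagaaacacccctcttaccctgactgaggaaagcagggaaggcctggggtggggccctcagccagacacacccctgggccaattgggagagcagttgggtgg
Mylk: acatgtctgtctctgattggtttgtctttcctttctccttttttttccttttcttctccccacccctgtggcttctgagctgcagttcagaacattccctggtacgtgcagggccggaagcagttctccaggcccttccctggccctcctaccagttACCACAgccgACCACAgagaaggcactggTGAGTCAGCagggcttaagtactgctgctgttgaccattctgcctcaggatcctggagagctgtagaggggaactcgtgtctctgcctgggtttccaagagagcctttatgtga
Myl9: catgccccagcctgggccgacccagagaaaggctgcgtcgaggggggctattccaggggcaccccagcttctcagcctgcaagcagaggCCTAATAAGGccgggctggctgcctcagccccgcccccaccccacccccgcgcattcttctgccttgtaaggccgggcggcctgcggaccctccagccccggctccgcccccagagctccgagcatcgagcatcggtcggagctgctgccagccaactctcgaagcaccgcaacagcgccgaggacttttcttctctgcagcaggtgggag

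The Mylk window held TGAGTCAGC, the longer NF-E2 site, from 64 to 56 bases before the start, and RUNX matches before it. Of all 32851 promoter windows 0.414% held the longer NF-E2 site, 5.2% its core, 16.8% the RUNX motif and 11.2% the GATA motif. The share of 0.414% covers only the core followed by GC. The core with GC just before it was not searched as a longer site, so a share for both forms is not given. Mylk was the single member window of 8 with the longer NF-E2 site, the core or the RUNX motif, and 0 of 8 held the GATA motif. The Tubb1 and Myh9 windows held the ETS motif, as did 35.4% of all windows. Myl9 held a CArG box, found in 1.63% of all windows. These are matches of letters, and no binding was measured.

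The design sets blasts of the spleen beside blasts of the blood of the same animals. Nfe2 was bright on every array, as were the probe sets of Myh9, Mylk, Flna and Plek, and none of these genes differed by a factor of 1.5 between the tissues in both mice. Rab27b was higher and Flna and Mylk were lower in spleen in both mice, by small amounts. Myl9 and Tpm4 were below the filter. Of the 10 members 8 passed the filter and were tested among 11614 genes. With limma and Benjamini-Hochberg adjustment 0 of the 8 were called, beside 0% of all tested genes, and at an unadjusted p under 0.05 also 0 of 8, beside 12.4%. None of the 8 differed in both mice by 1.5-fold or more in 1 direction, beside 1.41% of all tested genes. The median log2 difference of spleen minus blood was -0.0021 for the 8 members and 0.029 for all tested genes, and its median size without sign was 0.104 and 0.136.

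**Figure D1:**
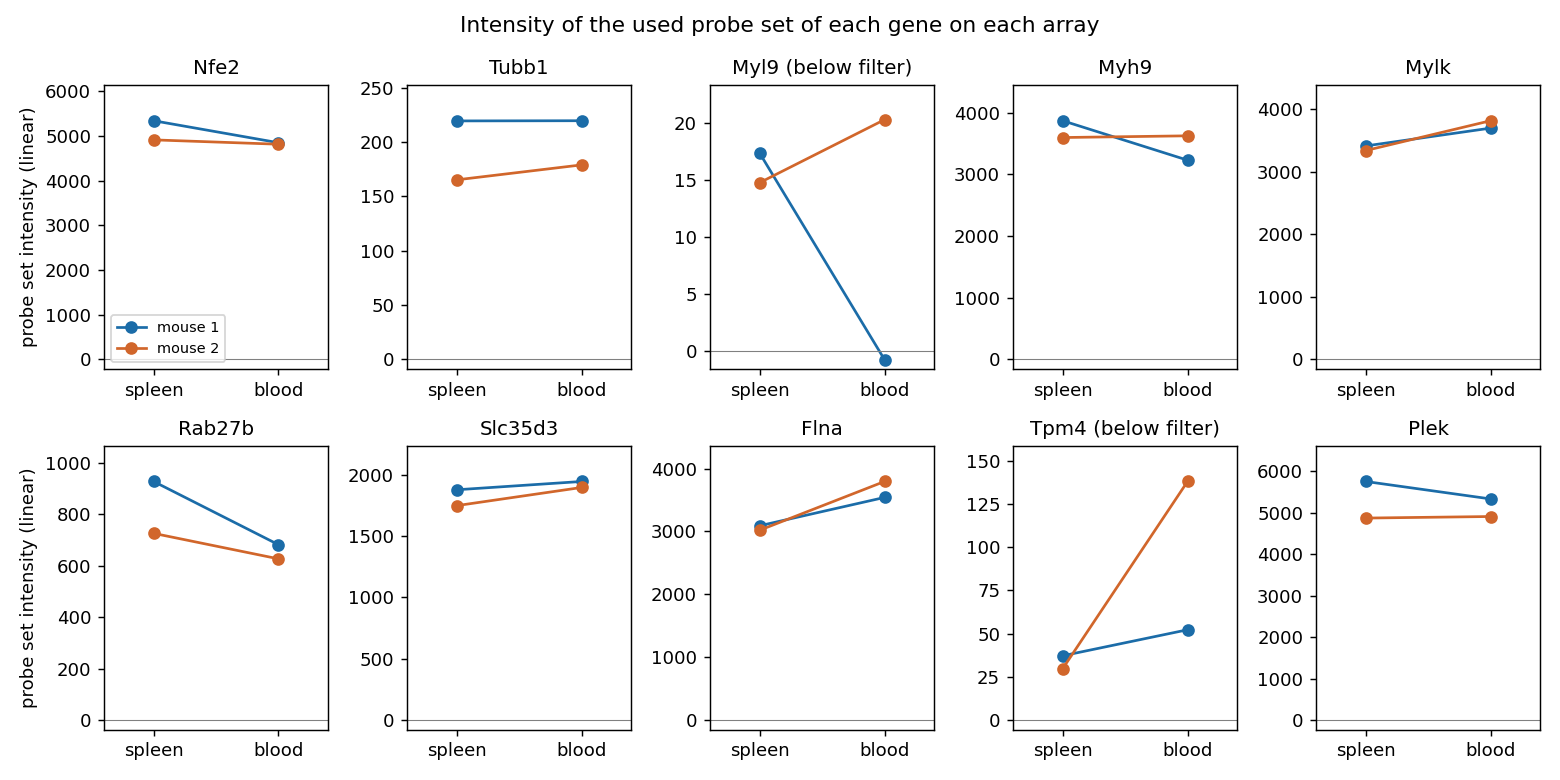
Intensity of the used probe set (linear scale, y axis) in spleen and blood, 1 panel per gene, with lines joining the samples of a mouse. Axes include 0. Most lines are nearly flat; Rab27b lies higher in spleen and Flna and Mylk lower in spleen in both mice, and Myl9 and Tpm4 are below the filter of 106.4 on average.

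The gene for the transcription factor itself, Nfe2 (probe set 1452001_at), had intensities of 5339 and 4911 in spleen of mouse 1 and mouse 2, against 4847 and 4814 in blood of mouse 1 and mouse 2. Both spleen arrays lay above both blood arrays, by a margin smaller than the gap between the spleen arrays. The log2 difference was 0.084 ± 0.11 (SE, 2 arrays per tissue), a ratio of 1.06, with a 95% interval from -0.19 to 0.36 and a limma adjusted p of 0.798. Nfe2 is also made in erythroid and mast cells. The 8 erythroid markers summed to 6594 and 6460 in spleen, against 7264 and 7516 in blood. Of them Tfrc had 2741 and 2426 in spleen, against 3290 and 3205 in blood, while Hba-a1 and Alas2 were under the filter on every array. Among the 5 tested, 2 were higher and 2 lower in spleen in both mice. The 7 mast cell and basophil markers summed to 4086 and 4110 in spleen, against 3391 and 3383 in blood. Most of each of these sums was Kit and Gata2, so they do not measure mast cell content. Kit had 2084 and 2156 in spleen, against 1451 and 1313 in blood. Gata2 had 1376 and 1631 in spleen, against 1337 and 1729 in blood. Of this list Cpa3, Mcpt8 and Ms4a2 were under the filter on every array, and Fcer1a and Gata2 went opposite ways in the mice. The part of such cells in the level of Nfe2 was not tested. By the distance between centred log2 values over the 4 arrays, Zfp560, Alad and Ywhaz were nearest to Nfe2, at 0.0072, 0.0094 and 0.017. In all 725 genes lay within 0.1 of Nfe2, so the nearest genes are not set apart by these arrays.

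The small Maf partners of Nfe2 and the related cap'n'collar and Bach factors held 6 tested genes of 8. None passed over all genes; 1 was higher and 3 were lower in both mice, and their median was -0.18. The partner Mafg had 569 and 651 in spleen of mouse 1 and mouse 2, against 621 and 855 in blood, and the partner Mafk had 754 and 699 in spleen, against 749 and 848 in blood. The tissues overlapped for both. Nfe2l2, the regulator of oxidant defence, had 1652 and 1483 in spleen, against 1251 and 1191 in blood, a difference of 0.36 ± 0.12 with a limma adjusted p of 0.348. Nfe2l1, a regulator of proteasome genes, differed by -0.33 ± 0.20 (adjusted p = 0.537) and Nfe2l3 by -0.24 ± 0.15 (adjusted p = 0.559). Maff and Bach2 were under 106.4 on every array.

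Tubb1 (probe set 1444214_at), which forms the marginal microtubule band of platelets, was dim, with 219 and 165 in spleen of mouse 1 and mouse 2, against 219 and 179 in blood. The tissues overlapped, and both arrays of mouse 2 lay below those of mouse 1. Spleen minus blood came to -0.053 ± 0.17 on the log2 scale (SE), with a 95% interval from -0.47 to 0.37 and a limma adjusted p of 0.920. Mouse 2 minus mouse 1 was -0.38 in spleen and -0.27 in blood on the log2 scale, with 1 animal on each side. A single probe set reads the gene, and its place in the transcript was not determined.

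Among 13 tested tubulins and microtubule factors 6 were higher and 4 lower in spleen in both mice, the median difference was 0.106, and 0 passed over all genes. The microtubule-depolymerizing kinesin Kif2a had 1078 and 943 in spleen of mouse 1 and mouse 2, against 693 and 680 in blood, a difference of 0.54 ± 0.12 with a limma adjusted p of 0.218. Both spleen arrays were above both blood arrays. Clasp2, which stabilizes microtubule ends, differed by 0.27 ± 0.12 (adjusted p = 0.433). The alpha tubulin Tuba1a had 117 and 72.6 in spleen, against 164 and 178 in blood, a difference of -0.78 ± 0.20 (adjusted p = 0.267); it is dim, so that the size depends on the offset.

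Myh9 (probe set 1420172_at), the heavy chain of nonmuscle myosin IIA, whose mutation gives large platelets in humans, had 3867 and 3594 in spleen of mouse 1 and mouse 2, against 3228 and 3622 in blood. The tissues overlapped, since blood of mouse 2 lay above spleen of mouse 2. On the log2 scale spleen minus blood was 0.12 ± 0.12 (SE), with a 95% interval from -0.17 to 0.42 and a limma adjusted p of 0.713. Of 5 probe sets 3 were higher in spleen in both mice, 1 was lower and 1, the one used, was opposite in the mice. The dimmest, with a mean of 126, was the lower one, at 116 and 106 in spleen, against 119 and 165 in blood.

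Mylk (probe set 1425506_at), the kinase that phosphorylates the myosin regulatory light chain, had 3417 and 3343 in spleen of mouse 1 and mouse 2, against 3702 and 3820 in blood. Both spleen arrays were below both blood arrays. The log2 difference was -0.15 ± 0.11 (SE), a ratio of 0.899, with a 95% interval from -0.42 to 0.11 and a limma adjusted p of 0.598. All 3 probe sets of Mylk were lower in spleen in both mice with no overlap of the tissues, and the middle one, with 923 and 914 in spleen, against 1131 and 1236 in blood, differed by -0.36. Probe sets of a gene are read from the same RNA and are not replicates.

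Myl9 (probe set 1452670_at), a regulatory light chain of myosin, was near 0, with 17.4 and 14.8 in spleen of mouse 1 and mouse 2, against -0.74 and 20.3 in blood. It was not tested, and the mice went opposite ways. Myl12a, another regulatory light chain, had 3967 and 3896 in spleen, against 3878 and 3920 in blood, and Myl12b had 4501 and 3795 in spleen, against 4409 and 4231 in blood. The tissues overlapped for both. Myh10, the heavy chain of nonmuscle myosin IIB, was below the filter on every array, with 5.10 and 10.5 in spleen, against 23.5 and 36.6 in blood. Probe sets differ in brightness, so the levels of different genes are not ranked.

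Of 13 tested genes of nonmuscle myosin and its regulators 6 were higher and 3 lower in spleen in both mice; the median was 0.033, with 0 passing over all genes. The light chain Myl6 differed by -0.28 ± 0.11 (adjusted p = 0.399), with 420 and 416 in spleen, against 491 and 532 in blood. The GTPase Cdc42, which organizes the actin of proplatelets, differed by 0.24 ± 0.16 (adjusted p = 0.584) and Ppp1cb, a catalytic subunit of myosin phosphatase, by 0.13 ± 0.11 (adjusted p = 0.660).

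**Figure D2:**
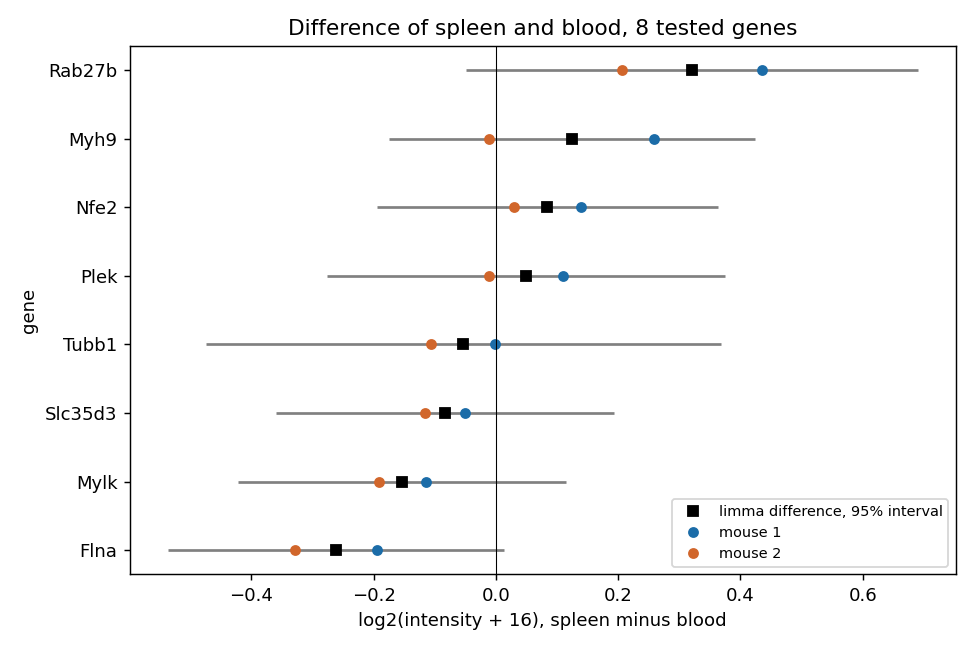
Log2(intensity + 16) of spleen minus blood (x axis) for the 8 tested members, with the limma difference and its 95% interval (square and line) and the difference in each mouse (circles). Every interval spans 0; Rab27b lies at 0.32 and Flna at -0.26.

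Flna (probe set 1426677_at), the actin crosslinker that ties the von Willebrand factor receptor to the cytoskeleton, had 3091 and 3020 in spleen of mouse 1 and mouse 2, against 3541 and 3795 in blood. The tissues did not overlap. The fitted log2 difference was -0.26 ± 0.11 (SE), a ratio of 0.834, with a 95% interval from -0.54 to 0.014, an unadjusted p of 0.0592 and a limma adjusted p of 0.421. A single probe set reads the gene. The difference was -0.20 in mouse 1 and -0.33 in mouse 2.

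Tpm4 (probe set 1433883_at), a tropomyosin that coats actin filaments and whose loss lowers platelet number, had 37.2 and 29.8 in spleen of mouse 1 and mouse 2, against 52.3 and 138 in blood. Blood of mouse 2 stood above the other arrays and was the single array above the filter. The mean of the gene was below the filter, so it was not tested. Its log2 differences of -0.36 in mouse 1 and -1.75 in mouse 2 rest on values near the background and on the offset.

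Flna, Mylk and Tpm4 had the same order of arrays as the granulocyte markers, with blood of mouse 2 highest, then blood of mouse 1, spleen of mouse 1 and spleen of mouse 2. This order, counted after the values were seen, was held by 2 of the 8 tested members, beside 7.16% of all tested genes. In bulk samples fewer cells of a type and less RNA per cell cannot be told apart. The ratio of the summed granulocyte signal in blood to that in spleen was 16.5 in mouse 2 and 1.65 in mouse 1. On the log2 scale as spleen minus blood, the 7 tested granulocyte markers had a median of -3.6 in mouse 2 and -0.37 in mouse 1. On this scale Flna differed by -0.33 in mouse 2 and -0.20 in mouse 1. Flna differed by -0.21 without blood replicate 2 and by -0.245 without spleen replicate 2, and Mylk by -0.13 and by -0.14. The cells were sorted for GFP, and the part of granulocyte RNA in these differences was not tested. The 10 smooth muscle and stroma markers, considered because Mylk and Flna are abundant in smooth muscle, summed to 1553 and 1507 in spleen of mouse 1 and mouse 2, against 1574 and 1657 in blood; of them 1 was higher and 1 lower in both mice among 4 tested, and Cnn1, Col1a1, Pdgfrb and Lum were under the filter on every array.

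Of 22 tested actin filament and membrane skeleton genes 9 were higher and 5 lower in spleen in both mice; the median was -0.0012, with 0 passing over all genes. The Wiskott-Aldrich syndrome gene Was, an activator of actin branching, had 2340 and 2450 in spleen of mouse 1 and mouse 2, against 1949 and 1938 in blood, a difference of 0.30 ± 0.11 (adjusted p = 0.367). The tissues did not overlap. The adhesion protein Vcl differed by 0.30 ± 0.13 (adjusted p = 0.431) and the membrane spectrin Sptbn1 by 0.27 ± 0.13 (adjusted p = 0.446).

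Rab27b (probe set 1417214_at), a GTPase of granule transport and secretion in platelets and a known NF-E2 target, had 927 and 725 in spleen of mouse 1 and mouse 2, against 681 and 626 in blood. Both spleen arrays were above both blood arrays. On the log2 scale spleen minus blood was 0.32 ± 0.15 (SE), a ratio of 1.25, with a 95% interval from -0.048 to 0.69, an unadjusted p of 0.0777 and a limma adjusted p of 0.447. It was 0.44 in mouse 1 and 0.21 in mouse 2, and 0.15 without spleen replicate 1. Every one of the 4 probe sets was higher in spleen in mouse 1 and in mouse 2, by 0.11 to 0.70 within a mouse and by 0.23 to 0.59 as the mean of both mice. Among genes with at least 3 probe sets that all passed the filter, 22.1% of 1026 had every probe set the same way in both mice, and of the 4 members among them Rab27b and Mylk did. Of 9 tested megakaryocyte markers 8 were also higher in spleen in both mice, beside 38.5% of all tested genes. The 10 markers summed to 24380 and 25290 in spleen of mouse 1 and mouse 2, against 21110 and 20720 in blood. Their ratio of blood to spleen was 0.866 in mouse 1 and 0.819 in mouse 2. On the log2 scale as spleen minus blood, the 9 tested markers had a median of 0.31 in mouse 1 and 0.26 in mouse 2. The part of megakaryocyte content in the difference of Rab27b was not tested.

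Slc35d3 (probe set 1428642_at), a transporter-family gene whose mutation in mice impairs platelet dense granules, had 1878 and 1749 in spleen of mouse 1 and mouse 2, against 1946 and 1897 in blood. The spleen arrays lay below the blood arrays by a margin smaller than the gap between the spleen arrays. Spleen minus blood came to -0.083 ± 0.11 on the log2 scale (SE), with a 95% interval from -0.36 to 0.19 and a limma adjusted p of 0.797.

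Of 20 tested genes of dense granules and lysosome-related organelles 7 were higher and 9 lower in spleen in both mice; the median was -0.069, with 0 passing over all genes. Rab27a, the close relative of Rab27b, had 725 and 627 in spleen of mouse 1 and mouse 2, against 614 and 576 in blood. Both spleen arrays were above both blood arrays. Rab32, a GTPase of dense granule formation, differed by 0.37 ± 0.19 (adjusted p = 0.481). Lower in spleen in both mice were Slc18a2, a vesicular monoamine transporter, by -0.61 ± 0.24 (adjusted p = 0.381), with 451 and 267 in spleen, against 555 and 521 in blood, and Bloc1s3, a subunit of a granule biogenesis complex, by -0.49 ± 0.18 (adjusted p = 0.363).

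Plek (probe set 1448748_at), pleckstrin, the major substrate of protein kinase C in platelets and also made by leukocytes, had 5749 and 4867 in spleen of mouse 1 and mouse 2, against 5328 and 4905 in blood. The tissues overlapped, and both arrays of mouse 2 lay below those of mouse 1. The log2 difference was 0.049 ± 0.13 (SE), with a 95% interval from -0.28 to 0.37 and a limma adjusted p of 0.901. The 9 macrophage and monocyte markers used summed to 3683 and 2641 in spleen, against 3128 and 6777 in blood, and their part in the level of Plek was not tested. Of its 3 probe sets 1 was higher in spleen in both mice and 2 were opposite in the mice. Of 9 tested genes of the pleckstrin and protein kinase C list 1 was higher and 4 were lower in spleen in both mice; the median was 0.016, with 0 passing over all genes. Prkcd, a kinase isoform, had 669 and 688 in spleen, against 739 and 1008 in blood, a difference of -0.34 ± 0.17 (adjusted p = 0.464). The isoform Prkca differed by 0.22 ± 0.12 (adjusted p = 0.499), higher in spleen in both mice, and Prkce by -0.23 ± 0.19 (adjusted p = 0.657), lower in both.

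**Figure D3:**
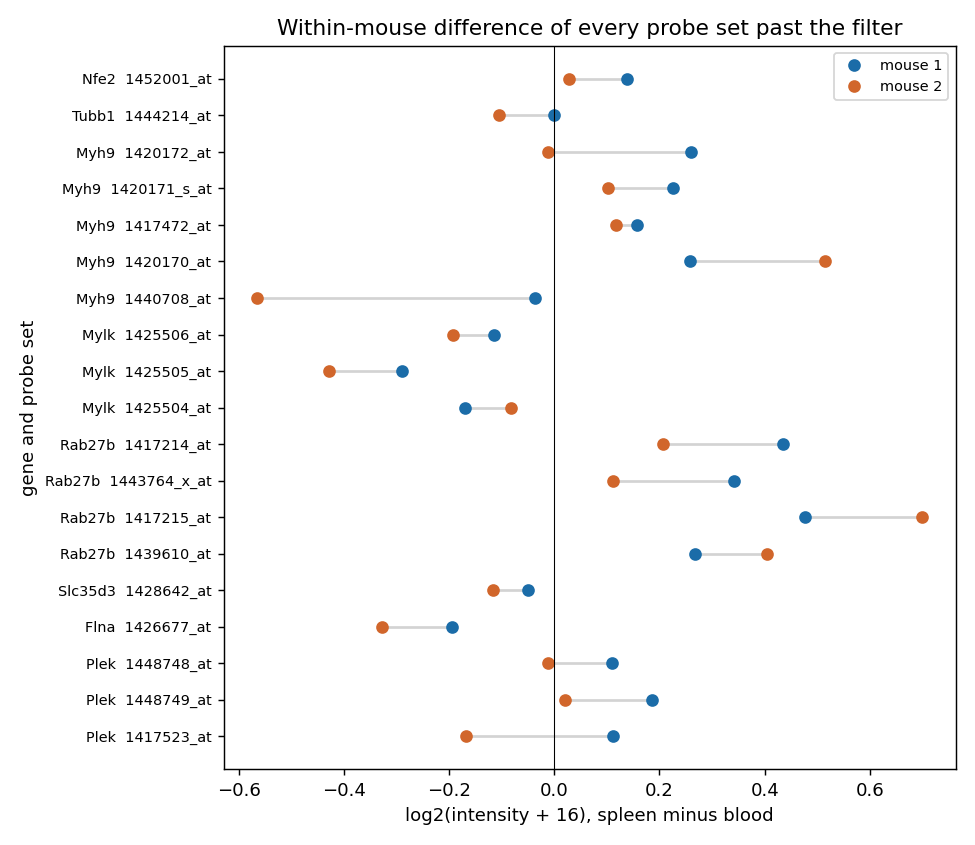
Log2(intensity + 16) of spleen minus blood in mouse 1 and mouse 2 (x axis) for the 19 probe sets past the filter (rows, with gene names). Rab27b lies right of 0 and Mylk left of 0 with every probe set, while Myh9 and Plek lie on both sides.

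Counted over the tested members, 2 of 8 were higher in spleen in both mice (Nfe2 and Rab27b), beside 38.5% of all tested genes, and 4 of 8 were lower in both (Tubb1, Mylk, Slc35d3 and Flna), beside 25.1%. Tubb1 counts there on a log2 difference of -0.0011 in mouse 1, and it was above 0 without spleen replicate 2 (0.14) and without blood replicate 1 (0.083). Myh9 and Plek went opposite ways, beside 36.4%. The tissues did not overlap for 5 of 8, beside 45.1% of all tested genes. These shares are of a set of 8 and show nothing particular to it.

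**Figure D4:**
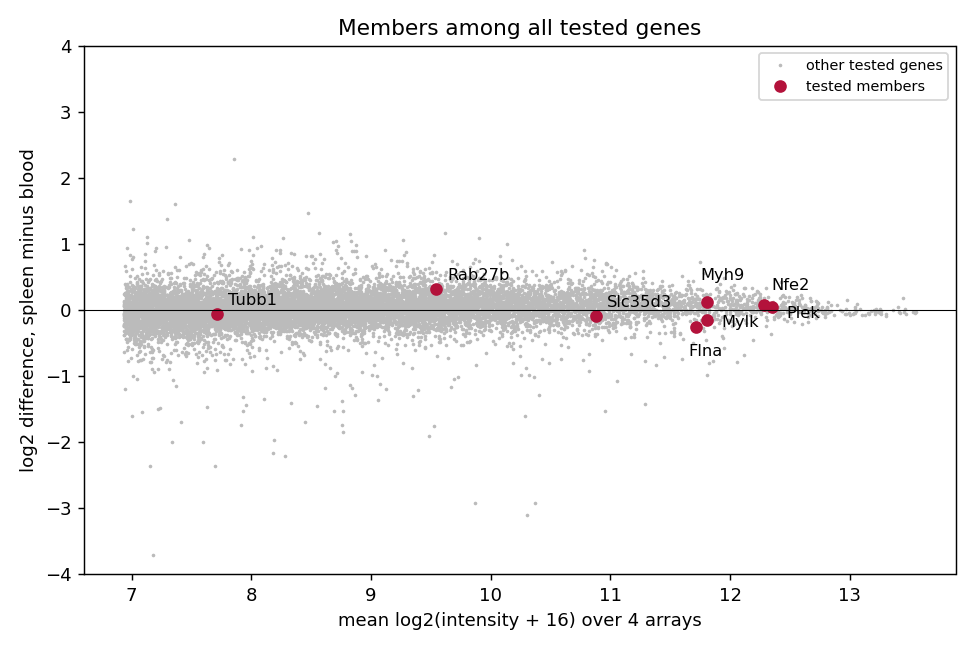
Log2 difference of spleen minus blood (y axis) against the mean log2(intensity + 16) over 4 arrays (x axis) for 11614 tested genes, with the 8 tested members in red. The members lie between -0.26 and 0.32, inside the cloud of the other genes.

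**Figure D5:**
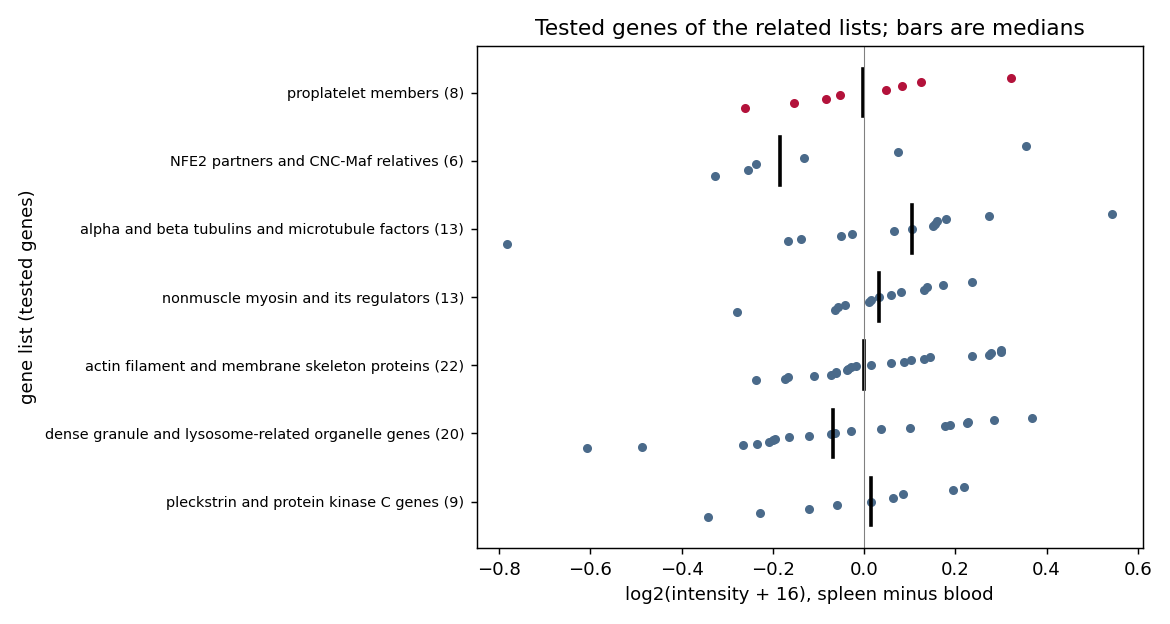
Log2(intensity + 16) of spleen minus blood (x axis) for the tested genes of the proplatelet set and the 6 related lists (rows, with the number of tested genes); vertical bars are medians. The medians lie between -0.18 and 0.106.

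Between the animals, mouse 2 minus mouse 1 ran the same way in both tissues for 5 of the 8 tested members, all lower in mouse 2. The share of all tested genes that ran this way was not counted. The array medians were also lower in mouse 2, at 103.7 against 108.3 in spleen and 108.8 against 110.6 in blood. The log2 differences of mouse 2 minus mouse 1 were -0.35 in spleen and -0.12 in blood for Rab27b, -0.24 and -0.12 for Plek, and -0.12 and -0.010 for Nfe2. Flna, Mylk and Myh9 were lower in mouse 2 in spleen and higher in blood, by no more than 0.17. Each side is 1 animal and no test was made.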

How the data were processed

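Probe set intensities on a linear scale were deposited by the authors, as the values themselves show; biotinylated cRNA from total RNA was hybridised to Affymetrix arrays, per the labels' protocols. The sources used here do not give the probe summary, background or scaling step. Between 1.6% and 2.17% of an array's 45101 values were below 0; after a floor at 0 and an offset of 16 the log2 was taken, so a fold change understates that of dim genes. Probe sets with 1 gene symbol numbered 34945, and names were updated with a RefSeq table of GRCm38.p6. Genes whose used probe set reached the median of all probe sets on average were tested (11614 of 18193).

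Spleen was compared with blood by limma 3.58.1 in R 4.3.3 (two-sided, tissue as sole term), adjusted over all tested genes at 0.05, and checked on simulated data. The labels pair the arrays by mouse; across genes the mouse difference in spleen correlated with that in blood at r = 0.10. The fit with mouse as a block, other scalings, offsets, filters, a variance trend, means of probe sets and left-out replicates were alternatives. All 10 members are named, and of each related list mainly the 3 genes that moved 1 way in both mice and whose lesser difference was largest; the 2 small Maf partners, Maff, Bach2, Myl12a, Myl12b, Myh10 and Rab27a were named after their values were seen. The members and lists were chosen with earlier results of these data known.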

Additional observations from a re-analysis of the deposited data

Results flagged for a closer look

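In 2 members the mice went opposite ways between spleen and blood, with 1 array per tissue and mouse, and the difference between the mice was not tested. For Myh9 the difference was 0.26 in mouse 1 and -0.011 in mouse 2, so that mouse 2 minus mouse 1 was -0.27. For Plek it was 0.11 in mouse 1 and -0.011 in mouse 2, which gave -0.12. The other probe sets bear on Myh9: 3 of its 5 were higher in spleen in both mice.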

How the results depend on the processing

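Over all genes, the number called was 45 with a variance trend and 20 without spleen replicate 1, and 0 under each other alternative; over the leave-one-out fits it ran from 0 to 20. With mouse as a replicate block 0 genes were called and the smallest adjusted p of a member was 0.303. Under every alternative 0 members were called, and none reached 1.5-fold in 1 direction in both mice under any scaling, offset or mean of probe sets. Nfe2, Myh9, Mylk, Rab27b, Slc35d3 and Flna kept their direction under all 13 alternatives that could be computed. Flna ran from -0.32 to -0.21, Mylk from -0.21 to -0.11 and Rab27b from 0.15 to 0.49. At an unadjusted p under 0.05 by limma, 1 member passed in some alternatives with all 4 arrays. It was Rab27b with mouse as a block, centred on array medians or with means of probe sets. It was Flna with quantile normalization, an offset of 64, a mean of at least 2 times the filter or a variance trend. Of all 11614 genes, 1191 were higher and 621 lower at this level with mouse as a block. With a variance trend these were 1068 and 466. Centred on array medians they were 1310 and 354, and with means of probe sets 866 and 537. They were 766 and 603 with quantile normalization and 992 and 484 with an offset of 64. With a mean of at least 2 times the filter they were 890 and 324 of 8643 genes. A single member passing is not set apart by these counts. In the main fit 12.4% of all tested genes passed. Over the leave-one-out fits Tubb1 ran from -0.24 to 0.14, being above 0 without spleen replicate 2 (0.14) and without blood replicate 1 (0.083). Plek ran from -0.071 to 0.17, being below 0 without spleen replicate 1 (-0.071) and without blood replicate 2 (-0.010). The cause was not tested. Fits without 1 array assume that the lone sample varies like the other tissue. Myl9 and Tpm4 were tested only with no filter, with adjusted p of 0.775 and 0.574.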
